A study of Mus musculus with 6 samples.

Results

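The genes described here are the ubiquitin-conjugating enzymes and the ubiquitin-specific peptidases of mouse skeletal muscle, taken as every row of the expression table whose symbol begins with Ube2 and a letter or with Usp and a digit. The rule found 93 of 24411 rows, 37 with a Ube2 symbol and 56 with a Usp symbol. It used names alone, and 2 of the genes it caught do other work: Ube2cbp is a ubiquitin ligase and Usp6nl an activator of Rab GTPases.

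RNA was sequenced from the extensor digitorum longus (EDL), a fast-twitch muscle of the lower leg, of 3 mAktDKO mice and 3 control floxed mice, all C57BL/6J and 50 weeks old. Both groups carried floxed alleles of Akt1 and Akt2, the kinases that relay insulin and IGF-1 signals, and mAktDKO mice also carried Mlc1f-Cre, in which the promoter of a myosin light chain used mainly by fast-twitch fibres drives the recombinase. Fibres in which that promoter is weak, and the vessel, nerve and connective tissue cells of the muscle, are outside its reach. The comparison asks how the transcripts of these enzymes differ when Akt is deleted in fibres. The control mice are named by the numbers of their columns, 2 to 4. The labels number the samples without stating that each is a separate animal, so p-values measure only the spread between these 6 samples, called mice here.

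Ubiquitin is attached to proteins by a relay. An E1 enzyme activates it, an E2 (ubiquitin-conjugating) enzyme carries it as a thioester, and an E3 ligase directs it to the substrate. Deubiquitinases cut it off again, and the ubiquitin-specific peptidases are their most numerous family. In muscle this system marks myofibrillar and other proteins for the proteasome, and FoxO factors, which Akt holds inactive, switch on several of its ligases during atrophy.

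The libraries held 13738795 to 15445523 estimated counts each, so a total of 3 counts, the floor used for a gene at 0, corresponds to 0.194 to 0.218 CPM, which are counts relative to the library total. CPM values here are scaled by the trimmed mean of M values (TMM). The check of the genotype came from the targeted genes. Akt2 stood at 51.3, 49.1 and 52.7 CPM in mAktDKO muscle against 172, 133 and 143 CPM in control muscle, a log2 fold change of -1.55 (SE 0.106, adjusted p 0.000923). Adjusted p values are those of edgeR, a quasi-likelihood test, after Benjamini-Hochberg correction, unless DESeq2 is named. Akt1 stood at 58.9, 56.8 and 51.4 CPM against 66.4, 65.5 and 66.5 CPM, a log2 fold change of -0.25 that did not pass (adjusted p 0.115). Markers of muscle composition were also compared. The 6 fast-fibre markers summed to 97174 to 109188 CPM in mAktDKO mice and 110243 to 118499 CPM in control mice. The summed CPM of all tested genes, given below, was also lower in every mAktDKO mouse. The fast-fibre sum alone therefore cannot show a change in composition. On plain library totals 4 of the 6 fast-fibre markers were lower, and the median over the 6 was -0.052. Of 5 slow-fibre markers, 4 were at higher levels in mAktDKO mice, 1 of them at an unadjusted p under 0.05. The slow-fibre sums overlapped, at 627 to 1224 CPM against 557 to 808 CPM. Of 26 tested markers of 8 cell types other than fibres, 24 were higher in mAktDKO muscle, 11 of them at an unadjusted p under 0.05. Over all tested genes 11.4% were higher at that p, and 47.5% were lower at any p. The 4 fibro-adipogenic markers summed to 15265 to 19718 CPM against 6356 to 15567 CPM, and the 5 macrophage markers to 80.6 to 105 CPM against 51.7 to 89.7 CPM. The groups overlapped for both sums. The globin gene Hbb-bs, which has near-identical copies, was at 0 in every control library. In whole muscle, fewer cells of a type and less RNA per cell cannot be told apart, and the part of these shifts in the differences given below was not tested.

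Of the 93 genes, 79 had enough counts to be tested, 33 of the Ube2 group and 46 of the Usp group. The 14 others comprised 10 genes at 0 in every mouse and 4 with at most 12 counts in any mouse. The genes at 0 were Ube2d2b, Ube2dnl1 and Ube2dnl2 among the Ube2 symbols and the 5 Usp17l genes, Usp26 and Usp9y among the Usp symbols. Ube2u, Usp27x, Usp50 and Usp51 were the genes with a few counts. Usp9y, a peptidase gene on the Y chromosome, had no count in any of the 6 libraries, although other genes of that chromosome were read: Ddx3y had 1567 to 1789 counts and Uty 260 to 436 counts.

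No member passed the study's threshold of an adjusted p of 0.01, which 0.0233% of the 12892 tested genes did, and none passed 0.05, which 1.18% of all genes did. Some alternative settings in edgeR put a member under 0.05, as given in the last section. At an unadjusted p under 0.05 stood 17 members, 14 of them lower and 3 higher in mAktDKO muscle, beside 24.5% of all genes. DESeq2 gave an adjusted p to 9781 genes, 68 of them members, and left 11 tested members without one. Of those 68, 1 passed 0.01, Usp19 (adjusted p 0.00403), where 3.46% of the 9781 genes did. DESeq2 put 4 members under 0.05, Usp19, Usp5 (adjusted p 0.0210), Ube2d1 (0.0322) and Ube2o (0.0359), beside 8.03% of the 9781 genes. The differences were small in either direction: 24 of 33 Ube2 genes and 38 of 46 Usp genes lay within 1.2-fold of the control level. The median standard error of a log2 fold change was 0.104 for the Ube2 genes and 0.103 for the Usp genes.

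The conjugating enzymes divided evenly between the directions. Of 33 tested, 17 were lower and 16 higher in mAktDKO muscle, with a median log2 fold change of -0.0024, beside 47.5% lower and a median of 0.017 over all genes. At an unadjusted p under 0.05 were 4 lower genes (12.1%, background 13.1%) and 2 higher ones (6.06%, background 11.4%). The peptidases leaned to lower levels. Of 46 tested, 31 were lower and 15 higher, with a median of -0.068, which ran from -0.12 (without mAktDKO mouse 3) to -0.035 (without control mouse 4) when 1 mouse was left out. At an unadjusted p under 0.05, 10 were lower (21.7%) and 1 was higher (2.17%), against the same background. This lean depends on the scaling: on plain library totals the median of all genes moved to 0.16, and 29.6% of all genes were lower. With that scaling 16 of 46 peptidases and 8 of 33 conjugating enzymes were lower, and their medians were 0.071 and 0.14. Set against the median of all genes, the peptidase median was -0.086 under both scalings. The 14 members lower at an unadjusted p under 0.05 all kept their sign on library totals, from -0.29 for Usp19 to -0.05 for Usp38, and Ube2d1 then stood at 0.45 (adjusted p 0.0431). Of those 14, only Ube2o, Usp5, Usp19 and Usp20 still had an unadjusted p under 0.05 on library totals. With that scaling 3 peptidases were lower and 8 higher at an unadjusted p under 0.05, and 1 conjugating enzyme was lower and 8 were higher, beside 5.02% lower and 23.0% higher over all genes.

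**Figure D1:**
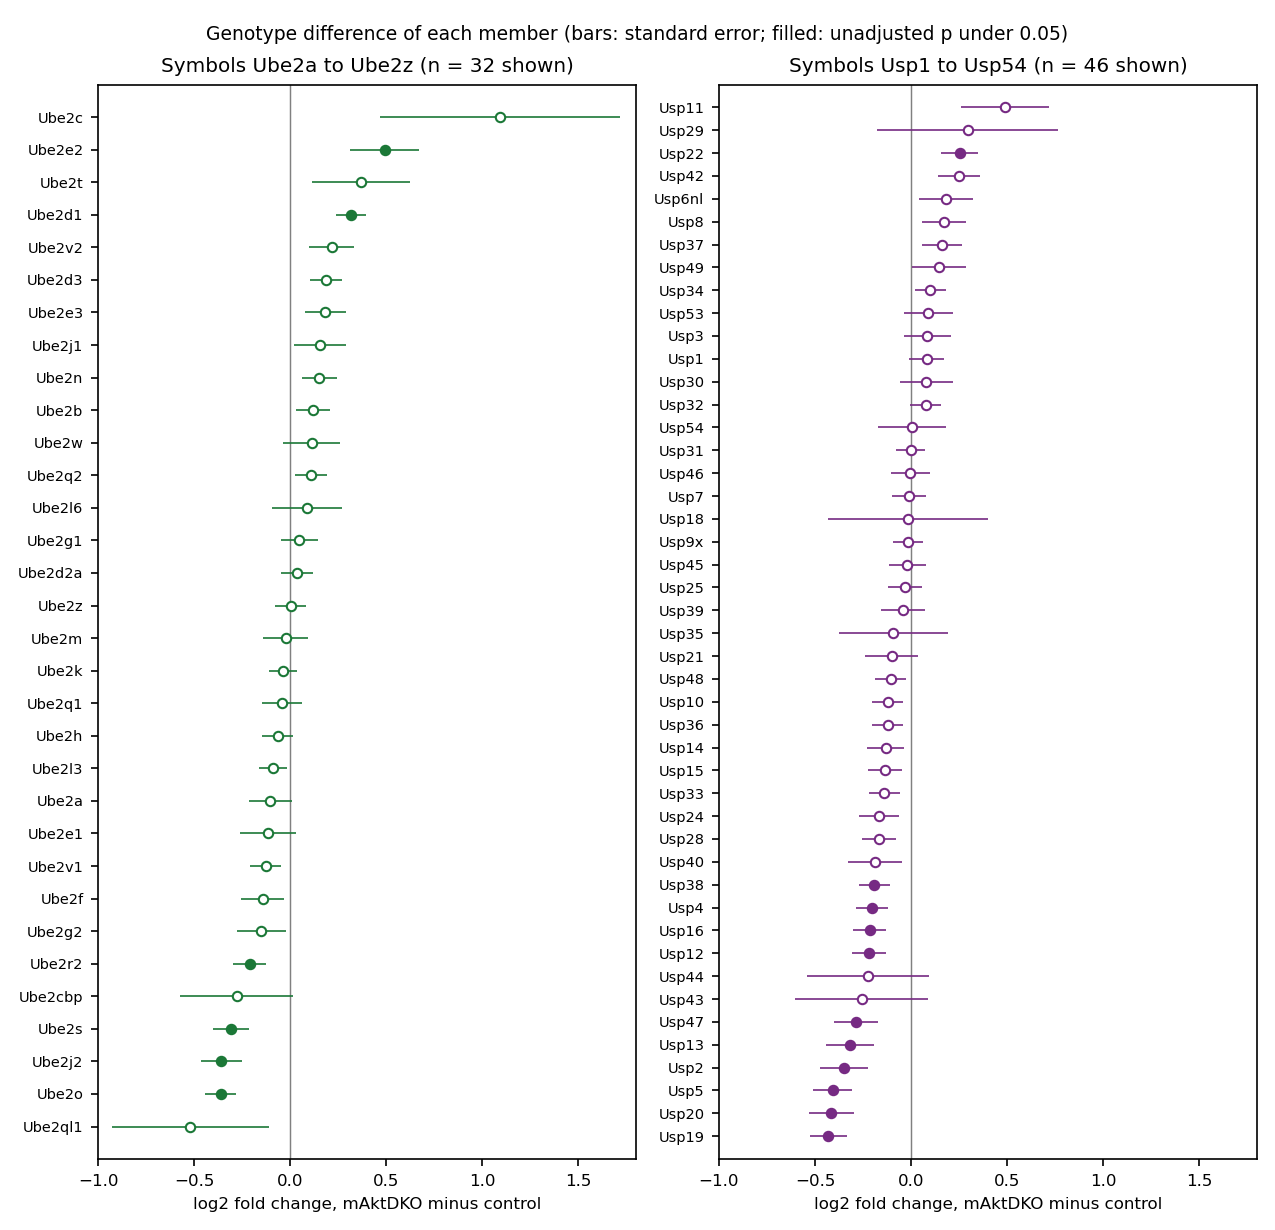
Log2 fold change (mAktDKO minus control) of 32 of the 33 tested Ube2 genes, left, and the 46 tested Usp genes, right, each sorted by value. Points are edgeR estimates with their standard errors, and filled points have an unadjusted p under 0.05: 6 on the left, of which 4 are lower, and 11 on the right, of which 10 are lower.

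The groups of mice did not overlap for 20 members, 15 lower and 5 higher in mAktDKO muscle, against 31.1% of all genes (16.6% lower and 14.6% higher). Among the Ube2 genes these were 4 lower and 3 higher, and among the Usp genes 11 lower and 2 higher. For 3 mice against 3 an exact two-sided permutation test cannot give less than p = 0.1, the value each of these genes had.

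Among the conjugating enzymes Ube2d1 had the smallest p on the higher side. The Ube2d enzymes work with a wide range of RING and U-box ligases. Ube2d1 read 121, 131 and 136 CPM in mAktDKO mice against 104, 106 and 101 CPM in control mice, 24.6% higher (log2 fold change 0.32, SE 0.078, adjusted p 0.0691). All 3 mAktDKO mice lay above all 3 control mice. Ube2d3 read 205, 234 and 231 CPM against 187, 200 and 201 CPM (log2 fold change 0.19, adjusted p 0.210), also without overlap. Ube2d2a, the third expressed gene of the set, had groups that overlapped, with means of 59.6 and 58.2 CPM and a log2 fold change of 0.03. Summed over the 3 genes, the level was 384, 429 and 424 CPM in mAktDKO mice and 346, 365 and 363 CPM in control mice, so the groups of mice did not overlap for the sum either.

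Whether reads can be told apart matters for such close relatives, because the reads were 37 bases long. The first 60 coding bases of Ube2d1 (mm10 chr10:71262227-71285124, minus strand, spanning an intron) and of Ube2d3 (mm10 chr3:135439775-135455221, plus strand, also spanning an intron) are shown with the 16 positions at which they differ in capitals.
Ube2d1: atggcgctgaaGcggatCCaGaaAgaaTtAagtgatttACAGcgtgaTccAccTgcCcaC
Ube2d3: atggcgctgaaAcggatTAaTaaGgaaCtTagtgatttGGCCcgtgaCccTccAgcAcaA
Over the 441 coding bases compared the genes were 77.6% identical, and the longest run they shared was 11 bases. None of the 37-base words of Ube2d1 occurred in a transcript of another gene, while 17.9% of those of Ube2d3 and 16.5% of those of Ube2d2a did. The Ube2d1 level therefore does not rest on dividing reads between genes.

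Ube2e2, a relative of the Ube2d genes with an extended amino terminus, was low and higher in mAktDKO muscle. It read 3.68, 3.41 and 3.77 CPM against 2.45, 2.63 and 2.65 CPM (log2 fold change 0.49, SE 0.178, adjusted p 0.144), with no overlap between the groups. Ube2e3 had a log2 fold change of 0.18 and Ube2e1 of -0.12, both with overlapping groups, and 64.8% of the 37-base words of Ube2e1 were shared with other genes.

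On the lower side stood Ube2o, a large enzyme that acts as both E2 and E3 and clears unassembled ribosomal and other proteins. It read 32.7, 30.7 and 32.9 CPM in mAktDKO mice and 43.0, 38.8 and 42.0 CPM in control mice, 22.2% lower (log2 fold change -0.36, SE 0.083, adjusted p 0.0602). The mAktDKO mice lay close together and wholly under the control mice. Ube2j2, an enzyme anchored in the endoplasmic reticulum that serves the degradation of misfolded proteins there, read 11.2, 9.76 and 10.8 CPM against 13.5, 13.1 and 14.1 CPM (log2 fold change -0.36, adjusted p 0.0998). Its relative Ube2j1 had a log2 fold change of 0.16 with overlapping groups, and the cytosolic partners in that pathway, Ube2g1 and Ube2g2, stood at 0.05 and -0.15.

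Ube2s, which lengthens ubiquitin chains for the anaphase-promoting complex, read 26.6, 22.8 and 25.03 CPM in mAktDKO mice and 32.5, 29.8 and 29.7 CPM in control mice (log2 fold change -0.31, adjusted p 0.103). The groups did not overlap. Ube2c, which starts those chains and is a gene of dividing cells, was near the floor, at 1.84, 1.26 and 0.480 CPM against 0.140, 0.948 and 0.605 CPM, so its log2 fold change of 1.09, the largest of all members, had a standard error of 0.626 and ran from 0.62 (without control mouse 2) to 1.69 (without control mouse 3) when 1 mouse was left out. Ube2r2, an E2 of the cullin ligases, read 76.9, 85.2 and 91.1 CPM against 101, 96.3 and 95.9 CPM (log2 fold change -0.21, adjusted p 0.172). Every mAktDKO mouse was under every control mouse for Ube2r2. Its close relative Cdc34, which the rule on symbols leaves out, passed 0.05: it fell by 0.52 on the log2 scale, from 129, 113 and 108 CPM in control mice to 83.9, 74.9 and 85.3 CPM (adjusted p 0.0474).

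The enzymes of lysine-63 chains, which signal rather than mark for degradation, showed no difference that passed. Ube2n, the catalytic partner, had a log2 fold change of 0.15, and its inactive partners Ube2v1 and Ube2v2 stood at -0.13 and 0.22, with overlapping groups for all 3 genes and with 84.0% of the 37-base words of Ube2v1 shared with other genes. Some members carry other modifiers than ubiquitin. Ube2m and Ube2f, for NEDD8, had log2 fold changes of -0.02 and -0.14, and Ube2l6, for ISG15, of 0.09.

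Ube2b, one of 2 mouse counterparts of yeast Rad6 and long known as a muscle E2, had the highest level per length of all members, 204 CPM per kb of transcript averaged over the 6 mice, ahead of Ube2d3 at 84.0 and Ube2d1 at 81.4 CPM per kb. Its level in CPM was 232, 245 and 280 in mAktDKO mice and 230, 236 and 231 in control mice. One mAktDKO mouse lay inside the control range and the others above it, and the log2 fold change of 0.12 did not pass (adjusted p 0.429) and was 0.024 without mAktDKO mouse 3. The other counterpart, Ube2a, averaged 18.9 CPM per kb with a log2 fold change of -0.10.

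**Figure D2:**
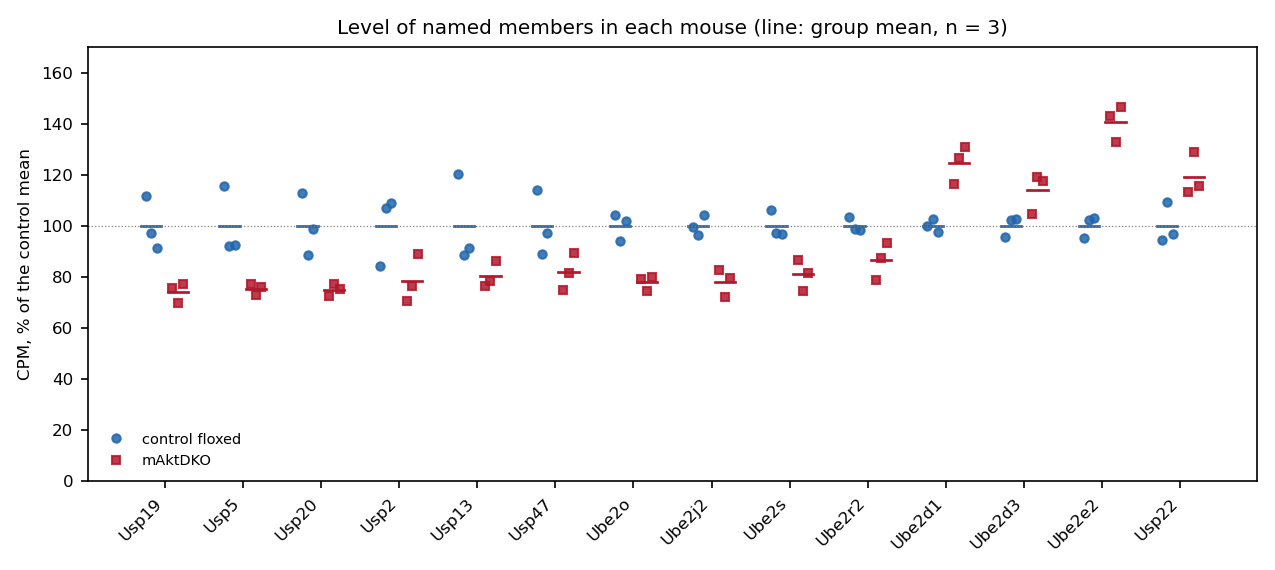
Level of 14 members in each mouse as a percentage of the control mean, with circles for the 3 control mice (order 2, 3, 4), squares for the 3 mAktDKO mice (order 1, 2, 3) and lines for the means. Ube2d1, Ube2d3, Ube2e2 and Usp22 lie above the control mice without overlap, and Usp2 and Usp47 are the only genes shown whose groups overlap.

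Among the peptidases Usp19 had the smallest p. It is a deubiquitinase with a form anchored in the endoplasmic reticulum and is known in muscle for its link to atrophy and to myofibrillar proteins. It read 134, 123 and 136 CPM in mAktDKO mice against 197, 171 and 161 CPM in control mice, 25.8% lower (log2 fold change -0.43, SE 0.096, adjusted p 0.0587). The highest mAktDKO mouse lay under the lowest control mouse. Usp19 lies at mm10 chr9:108490602-108502337 on the plus strand, and none of its 37-base words was shared with another gene. Usp30, the peptidase of the outer mitochondrial membrane that opposes mitophagy, was low, with means of 7.12 and 6.73 CPM and overlapping groups.

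Usp5 and Usp13 are paralogues. Usp5 takes apart free ubiquitin chains and so returns single ubiquitin to the pool, and Usp13 shares its domain order. Usp5 read 48.2, 45.5 and 47.5 CPM against 72.1, 57.5 and 57.7 CPM (log2 fold change -0.41, SE 0.103, adjusted p 0.0716). Usp13 was the more abundant, at 271, 278 and 306 CPM against 427, 315 and 325 CPM (log2 fold change -0.32, adjusted p 0.165). Both had groups that did not overlap, and in both control mouse 2 was the highest by a wide margin. Usp14, which trims chains on the proteasome itself, had overlapping groups and a log2 fold change of -0.13, and 45.1% of its 37-base words were shared with other genes.

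Control mouse 2 had the highest level of the 6 mice for 8 of the 10 peptidases that were lower at an unadjusted p under 0.05. Without it the log2 fold change was -0.17 for Usp13, -0.18 for Usp47, -0.29 for Usp5, -0.34 for Usp19 and -0.32 for Usp20, and for Usp2 it was -0.46. Unadjusted p values in edgeR then rose above 0.05 for 5 of the 10, Usp13 (0.084), Usp47 (0.091), Usp12 (0.098), Usp4 (0.088) and Usp38 (0.064), while Usp14 came under it (-0.21, p 0.038). Of the other members, Usp22 (0.062), Ube2e2 (0.054) and Ube2r2 (0.063) also lay above 0.05 without that mouse, and Ube2e1 (-0.27, p 0.021), Ube2f (-0.25, p 0.019) and Usp11 (0.60, p 0.043) came under it. Without that mouse 6 of 46 peptidases were lower at an unadjusted p under 0.05, where 10.2% of all genes were. The number was 7 of 46 without control mouse 3 (all genes 11.8%) and 7 of 46 without control mouse 4 (all genes 13.3%). It was 4 of 46 without mAktDKO mouse 1 (all genes 10.2%) and 4 of 46 without mAktDKO mouse 2 (all genes 8.08%). Without mAktDKO mouse 3 it was 10 of 46 (all genes 12.2%). The peptidase share was thus under that of all genes without mAktDKO mouse 1. It was close to that of all genes without mAktDKO mouse 2.

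Usp20, a close relative of Usp33 that acts on membrane receptors, read 11.4, 12.2 and 11.9 CPM in mAktDKO mice and 17.8, 13.9 and 15.6 CPM in control mice (log2 fold change -0.42, SE 0.116, adjusted p 0.0877). The mAktDKO mice lay close together and did not overlap with the control mice. Usp33 was lower by less, with a log2 fold change of -0.14 (adjusted p 0.318). Its groups only just failed to overlap, with mAktDKO mouse 3 at 33.87 CPM and control mouse 3 at 33.92 CPM.

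Usp2, whose transcript follows the circadian clock, had the highest level per length of the peptidases, 71.3 CPM per kb, followed by Usp47 at 66.4 and Usp13 at 61.9 CPM per kb. It read 119, 129 and 150 CPM in mAktDKO mice and 143, 181 and 185 CPM in control mice (log2 fold change -0.35, SE 0.124, adjusted p 0.138). Here control mouse 2 was the lowest of its group and mAktDKO mouse 3 lay above it, so the groups overlapped. Usp47, a peptidase of base excision repair and of other pathways, read 303, 330 and 361 CPM against 461, 359 and 392 CPM (log2 fold change -0.29, adjusted p 0.165), with a narrow overlap between mAktDKO mouse 3 and control mouse 3. Its paralogue Usp7, the peptidase of Mdm2 and p53, was level, with means of 97.8 and 98.5 CPM.

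Usp16, a peptidase of histone H2A, Usp12, an enzyme activated by Wdr48, and Usp4 had log2 fold changes of -0.22, -0.22 and -0.20 (adjusted p 0.174, 0.178 and 0.177), and none of these genes had groups that overlapped. Usp4 read 71.7, 63.6 and 68.8 CPM against 83.5, 75.4 and 76.1 CPM. Its paralogues went separate ways in value: Usp15 had a log2 fold change of -0.14 and Usp11 of 0.49, the largest of the peptidases. Usp11 was low, at 3.804, 5.03 and 3.15 CPM against 3.29, 2.41 and 2.87 CPM, and its groups overlapped (adjusted p 0.227). Without mAktDKO mouse 2, the highest of the 6, its log2 fold change was 0.28.

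Usp22, the deubiquitinase of the SAGA transcription complex, was the only peptidase higher at an unadjusted p under 0.05. It read 30.1, 34.3 and 30.7 CPM in mAktDKO mice and 25.1, 29.0 and 25.7 CPM in control mice (log2 fold change 0.25, SE 0.097, adjusted p 0.156). Its relatives Usp27x and Usp51 were too low to test. Usp42, chosen after its values were seen as the other higher peptidase without overlap, read 14.6, 15.9 and 13.9 CPM against 12.9, 11.3 and 13.3 CPM (adjusted p 0.205).

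The giant peptidase Usp9x, which has substrates in many pathways, had the highest CPM of all members, 507, 529 and 551 in mAktDKO mice against 522, 546 and 536 in control mice. Its groups overlapped and its log2 fold change was -0.02 (SE 0.079). Usp18, which removes ISG15, stood near the floor with means of 1.34 and 1.37 CPM and a standard error of 0.416.

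**Figure D3:**
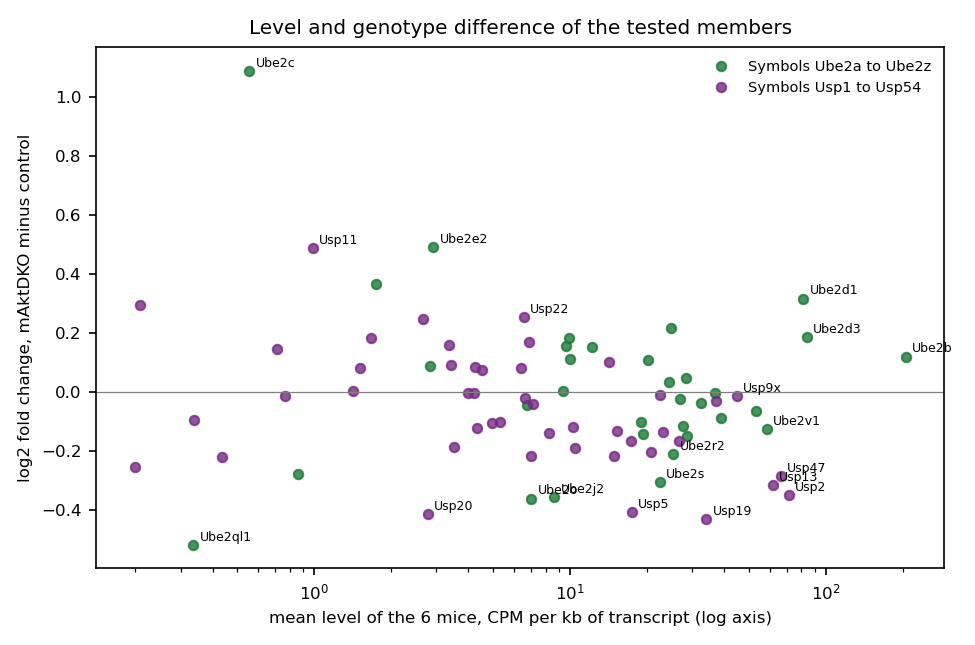
Mean level of each tested member over the 6 mice in CPM per kb of transcript (horizontal, log axis) against its log2 fold change, mAktDKO minus control (vertical). Green points are the 33 Ube2 genes and purple points the 46 Usp genes, whose 10 highest lie below 0.

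Among the peptidases the more abundant genes had the lower fold changes. Across the 46 genes, which share libraries and are not independent replicates, Pearson's r between log2 level per kb and log2 fold change was -0.43, and it was -0.13 across the 33 conjugating enzymes and -0.25 across 12819 genes with a length. The 10 peptidases with the highest level, a number chosen after the values were seen, were all lower with TMM scaling, with a median of -0.18, and 6 of them were lower on library totals. Of the 10 highest conjugating enzymes, 6 were lower with a median of -0.02, and 1 was lower on library totals. Of all genes at or above the level of the last of those 10 peptidases, 64.6% were lower. Transcript length went with the difference only weakly, with r of 0.19 across the peptidases and -0.23 across the conjugating enzymes.

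Taken by mouse, the classes moved little. The mean log2 CPM of the 33 conjugating enzymes was 4.72, 4.74 and 4.69 in mAktDKO mice and 4.62, 4.75 and 4.71 in control mice. The mean of the 46 peptidases was 4.66, 4.72 and 4.74 against 4.74, 4.75 and 4.78. The difference between the class means within a mouse, which library scaling leaves almost untouched, was 0.06, 0.02 and -0.05 in mAktDKO mice and -0.12, -0.01 and -0.07 in control mice. The group means of this difference were 0.01 ± 0.06 and -0.06 ± 0.06 (SD, n = 3), and the groups overlapped. Summed CPM gives weight to the abundant genes, and there the peptidases came to 2987, 3137 and 3329 CPM against 3671, 3348 and 3413 CPM, with no overlap. The sum over all tested genes was lower without overlap too, at 930965, 919306 and 1013099 CPM against 1079192, 1029552 and 1038023 CPM. The separation of the peptidase sum is therefore not particular to the peptidases. On library totals the peptidase sums were 3205, 3409 and 3284 CPM against 3400, 3249 and 3285 CPM, and the groups overlapped. The conjugating enzymes summed to 1708, 1793 and 1854 CPM against 1732, 1789 and 1743 CPM, with overlap. On library totals they summed to 1833, 1949 and 1829 CPM against 1604, 1736 and 1678 CPM, and every mAktDKO mouse lay above every control mouse. With that scaling the mean log2 CPM over all tested genes did so too, at 3.93, 3.94 and 3.76 against 3.63, 3.74 and 3.73.

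**Figure D4:**
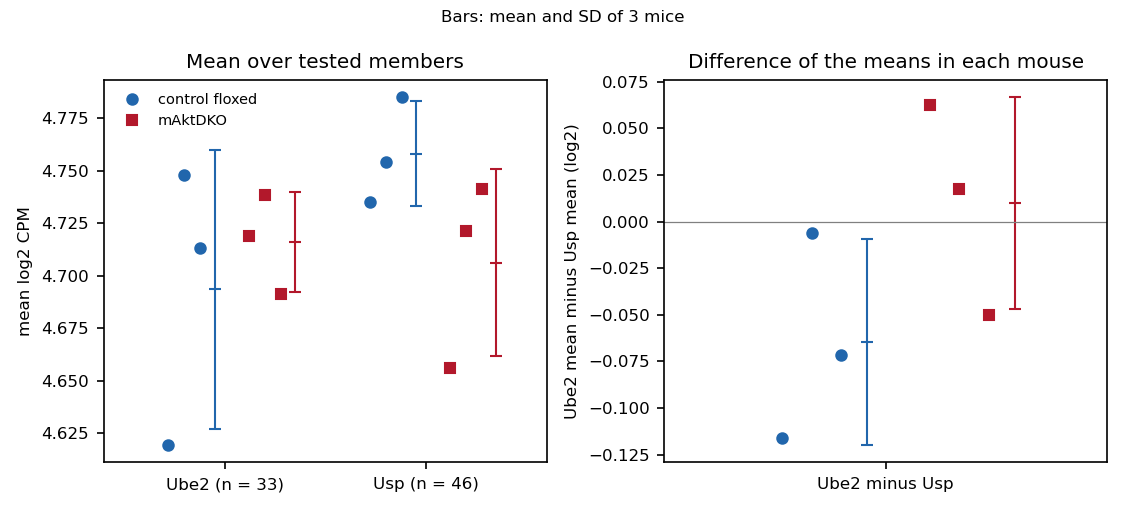
Left, mean log2 CPM over the 33 Ube2 and the 46 Usp genes in each mouse. Right, the difference between these means within each mouse. Circles are control mice, squares mAktDKO mice, bars the mean and SD of 3 mice, and the groups overlap in each comparison.

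The mice of a group were not equally placed. In mAktDKO mouse 3, 28 of 46 peptidases had their highest level of the group, and in mAktDKO mouse 1, 27 of 46 had their lowest. Control mouse 2 had the highest control level for 20 peptidases and the lowest for 17. For the conjugating enzymes it had the lowest control level for 18 of 33.

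Promoter sequences from RefSeq (GRCm38.p6), 250 bases before to 50 after an annotated start, were matched for 73 of the 93 members. They came to 85 windows, because 9 of these genes have more than 1 annotated start, and a gene was counted for a motif found in any of its windows. The windows are shown for the peptidase with the smallest p and for the conjugating enzyme with the smallest p on the higher side, 5′ to 3′ on the strand of the gene, at chr9:108490426-108490725 (plus) and chr10:71285213-71285512 (minus). Capitals mark the motif CCGGAAG of ETS factors, the only one of the motifs searched that was found in either.
Usp19: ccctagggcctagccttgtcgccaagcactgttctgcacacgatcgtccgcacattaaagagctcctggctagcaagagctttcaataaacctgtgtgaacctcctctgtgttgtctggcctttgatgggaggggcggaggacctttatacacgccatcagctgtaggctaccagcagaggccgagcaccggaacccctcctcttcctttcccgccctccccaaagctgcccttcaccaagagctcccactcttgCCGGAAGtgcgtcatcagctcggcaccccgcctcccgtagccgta
Ube2d1: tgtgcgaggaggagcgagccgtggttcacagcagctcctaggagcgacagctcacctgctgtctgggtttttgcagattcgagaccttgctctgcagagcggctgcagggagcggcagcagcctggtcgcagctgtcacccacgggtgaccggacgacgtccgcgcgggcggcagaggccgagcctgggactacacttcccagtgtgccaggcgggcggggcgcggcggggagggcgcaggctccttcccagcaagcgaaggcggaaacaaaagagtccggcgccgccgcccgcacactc
The search took in both strands and 5 motifs, and counted each motif on its own where sites overlapped. The FoxO element GTAAACA was in 4.05% of the promoters of 27025 genes, in that of 1 of 30 conjugating enzymes (Ube2h, at an inner start and not at the start of the whole gene) and in that of 0 of 43 peptidases. CCGGAAG was in 9.93% of all promoters, in 7 of 30 and in 8 of 43. The E-box CACGTG was in 8.09% of all, in 3 of 30 and in 5 of 43, and the NRF1 motif in 5.19% of all, in 4 of 30 and in 4 of 43. The cyclic AMP response element TGACGTCA was in 2.03% of all, in 2 of 30 and in 1 of 43. These are matches of letters in a short window and say nothing about binding.

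The rest of the ubiquitin system gives the setting. Of 101 further genes in 13 lists, 98 were tested, 55 lower and 43 higher, with a median log2 fold change of -0.03 (29 lower on library totals), and 2 passed an adjusted p of 0.05 in edgeR. With DESeq2 5 passed 0.01 and 6 passed 0.05. Over all genes 1.18% passed 0.05 in edgeR, and with DESeq2 3.46% passed 0.01 and 8.03% passed 0.05. The 2 in edgeR were Cdc34, given above, and Ufc1, the E2 of the modifier UFM1, which fell by 0.47 on the log2 scale (adjusted p 0.0474). Both passed 0.01 with DESeq2 (adjusted p 0.000421 and 0.00608). In edgeR neither kept 0.05 without any one of the mAktDKO mice or without control mouse 3, nor Ufc1 without control mouse 2, with adjusted p values over the left-out mice of 0.0387 to 0.231 for Cdc34 and 0.0409 to 0.220 for Ufc1. Neither passed 0.05 on library totals. The ubiquitin genes were lower in 4 of 4 cases, or 3 of 4 on library totals, with none passing, and Ubb had a log2 fold change of -0.26. Sumo2 stood at 56.3, 59.5 and 55.6 CPM against 36.7, 41.7 and 44.8 CPM (log2 fold change 0.48, adjusted p 0.05002 in edgeR and 0.00427 in DESeq2). The E1 enzymes were lower in 3 of 8 cases, or 0 of 8 on library totals, and ranged from -0.11 to 0.26.

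In the other deubiquitinase families no gene passed 0.05 in edgeR, and with DESeq2 Otub2 did (adjusted p 0.0396), where 8.03% of all genes did. The OTU family, with 14 tested, was divided evenly at 7 lower and 7 higher (3 lower on library totals), from -0.86 for Otub2 to 1.13 for Otud1. When 1 mouse was left out, Otub2 ran from -1.05 (without control mouse 3) to -0.56 (without control mouse 2) and Otud1 from 0.60 (without mAktDKO mouse 3) to 1.78 (without control mouse 3). Among the metalloproteases, 3 of 7 were lower (2 on library totals), with Psmd14, the deubiquitinase of the proteasome lid, at -0.30 (adjusted p 0.101). Of 19 ligases known in muscle, 13 were lower, or 10 on library totals. None passed 0.05 in edgeR. With DESeq2 2 passed 0.01, where 3.46% of all genes did: Asb2 (adjusted p 0.00155) and Trim54 (Murf3, adjusted p 0.00560). Asb2 had the lowest value, -0.68 (adjusted p 0.0752 in edgeR), Trim54 stood at -0.56 (-0.36 without control mouse 2), and Fbxo30, a FoxO-linked ligase, at 0.30. The atrophy ligases Fbxo32 and Trim63 had log2 fold changes of -0.27 and -0.12, with standard errors of 0.342 and 0.206.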

How the data were processed

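RNA of the extensor digitorum longus of 3 mAktDKO and 3 control floxed mice was sequenced by the authors after removal of ribosomal RNA, as paired reads of 37 bases, mapped to mm10 with STAR and counted with RSEM 1.3.1, per the submitters' processing notes, which give STAR 2.6.1b. Annotation and strand setting are not given in the sources used here. The deposited values are RSEM's estimated counts per gene (3.36% to 4.09% of values per library not whole), and they were rounded to whole numbers. Genes were kept by filterByExpr with a minimum count of 10, scaled by TMM and tested in edgeR 4.0.16 (R 4.3.3) by the quasi-likelihood F test with Benjamini-Hochberg adjustment over 12892 genes, at the study's adjusted p of 0.01. The study's own tool, DESeq2 (1.42.0 here), was an alternative. Both were tested on simulated data. Log2 CPM used a prior count of 2. The control columns, numbered 2 to 4, were taken as controls without matching them to single labelled samples. Genes were named by a rule: the 10 of each class with the smallest p, the 3 with the highest level per kb of transcript, the extreme fold changes, 17 genes of known biology and at most 3 per other list; further names are mentioned with their group. Shared sequence was the percentage of 37-base words of a gene's GENCODE M21 transcripts found in another gene. Members, lists and tests were chosen with earlier results of these data known, so no test over a list is given. Some items covered by the naming rule are not reported here. Alternatives were other scalings, filters, DESeq2, each mouse left out, removal of the length trend and narrower membership.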

Additional observations from a re-analysis of the deposited data

How the results depend on the processing

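No paired analysis was possible because numbers 2 to 4 stand on the control columns and 1 to 3 on the control labels. No member was called by edgeR at an adjusted p of 0.01 in any alternative, while DESeq2 called 1. At 0.05 edgeR called 1 peptidase without a filter and Ube2d1 on library totals (adjusted p 0.0431). Usp19 reached an adjusted p of 0.0488 in edgeR with 1 mouse left out. The number of genes called, 3 as given, was 32 without a filter (29 lower, 3 higher), 338 with DESeq2 (248 lower, 90 higher), 152 at an adjusted p of 0.05 (118 lower, 34 higher) and 0 to 8 when a mouse was left out (lower 0 to 5, higher 0 to 3). It was 0 without any one of the mAktDKO mice, when Akt2 also no longer passed, and 8 without control mouse 2. On library totals the median log2 fold change was 0.14 for the conjugating enzymes (8 lower) and 0.071 for the peptidases (16 lower). Their mean log2 CPM then differed between groups by 0.157 and 0.083, beside 0.173 over all tested genes. With a mouse left out, the peptidase median ran from -0.12 (without mAktDKO mouse 3) to -0.035 (without control mouse 4), with 25 to 31 lower, and the conjugating median from -0.043 to 0.017, with 15 to 19 lower. Without Ube2cbp and Usp6nl, an alternative added after the data were seen, the peptidase median was -0.094. Of 32 tested members picked by the naming rule, 25 kept their direction in every alternative. Among the genes that rule picked, the sign turned on library totals for Ube2m (0.12), Ube2v1 (0.012), Usp14 (0.0021), Usp18 (0.13), Usp9x (0.12), Uba1 (0.030), Bap1 (0.026), Cyld (0.0070) and Gmps (0.0093). With the length trend removed it turned for Ube2m (0.0524) and Usp18 (0.023). With a mouse left out, ranges of these genes that crossed 0 were -0.014 to 0.071 for Ube2d2a, -0.14 to 0.061 for Ube2m, -0.040 to 0.19 for Ube2l6, -0.34 to 0.34 for Usp18, -0.061 to 0.015 for Usp9x, -0.031 to 0.098 for Atxn3 and -0.030 to 0.17 for Pan2. Of members mentioned beside them, so did Ube2e1 (-0.27 to 0.011), Ube2g1 (-0.055 to 0.13) and Usp7 (-0.072 to 0.047). The cause was not tested. Precision was lowest for Ube2c, Ube2ql1, Usp18 and Usp29, genes of few counts whose standard errors exceed 0.4.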
